A study of Mus musculus with 12 samples.

Results

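The genes described here are 10 markers of the primitive endoderm, the layer of the mouse blastocyst that lies next to the epiblast. They are the transcription factor genes *Gata6*, *Gata4*, *Sox17*, *Sox7* and *Foxa2*, the receptor gene *Pdgfra*, the endocytosis genes *Dab2*, *Cubn* and *Amn*, and the matrix gene *Sparc*. They were chosen by symbol, as a set of known markers and with earlier results of these data known, out of 57180 genes in the annotation. The question put to them is whether expression of primitive endoderm genes accompanied the changes of matrix genes when pyruvate cycling was lowered. All 10 had enough reads to be tested.

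In the embryo, cells of the inner cell mass become either epiblast or primitive endoderm. FGF4 made by epiblast-biased cells acts through FGF receptors and ERK on their neighbours, where it favours GATA6 over NANOG, and GATA4, SOX17, SOX7 and PDGFRA follow. The primitive endoderm then gives rise to visceral endoderm, an absorptive epithelium that takes up maternal protein through cubilin and amnionless with the help of DAB2, and to parietal endoderm, which lays down a thick basement membrane rich in laminin, collagen IV, nidogen and SPARC. Cultures of mouse embryonic stem cells (ESCs) can hold a few cells of this kind.

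RNA was sequenced from 12 libraries in 4 groups of 3. The control line, Neg, holds scrambled guide RNA. In 3xKD cells the guides target *Pcx*, *Me1* and *Me2*, which encode pyruvate carboxylase and a pair of malic enzymes. Each line was sampled as ESCs (day 0, naive pluripotency) and as epiblast-like cells (EpiLCs) at day 2, a model of formative pluripotency. Both lines derive from E14-DOX-CRISPRi, male mouse ESCs that make dCas9 fused to a transcriptional repressor once doxycycline (DOX) is added. All 4 groups therefore share the repressor. Per the methods, ESCs were kept with LIF and inhibitors of MEK and GSK3, and EpiLCs with Activin A, Fgf2 and a tankyrase inhibitor. Both were harvested in parallel after the same time in culture. State and medium therefore cannot be told apart. Each line is 1 transfected line, so that line and knockdown cannot be told apart either. The labels do not name DOX, and the study's figure legend gives it. Groups were taken from the sample titles, since another label field names a single state for all 6 libraries of a line and so goes against the titles. The methods give biological triplicates as the general rule of the study, while the labels do not say that the 3 libraries of a group came from separate cultures. Where they did not, p-values measure only the spread between these libraries, which may be technical.

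The libraries held between 11221023 and 19652197 estimated counts. The guides' targets were lower in every 3xKD library than in any Neg library of the same state. The log2 fold change lay between -1.14 (*Pcx* in ESCs) and -0.89 (*Me1* in ESCs) over the 3 genes and both states. The labelled cell type was seen in all groups. *Pou5f1*, a core pluripotency gene, had 571–578 CPM (counts scaled to library size with TMM factors, the trimmed mean of M-values) in Neg ESCs and 505–536 CPM in 3xKD EpiLCs, its lowest group. *Nanog* had at least 993 CPM in ESCs and *Otx2*, a formative gene, at least 51.3 CPM in EpiLCs. Of 12 genes of pluripotent identity, edgeR and DESeq2 called 0 higher and 4 lower in 3xKD ESCs (1 and 9 at an unadjusted edgeR p under 0.05), and 4 higher and 3 lower in 3xKD EpiLCs.

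Against that level the endoderm markers were low. On the per-length scale (TPM, reads scaled to transcript length and library size), *Sparc* was the most abundant of the 10 in every group, with means of 23.1 ± 4.94 in Neg ESCs, 30.2 ± 5.29 in 3xKD ESCs, 10.5 ± 0.487 in Neg EpiLCs and 12.5 ± 2.77 in 3xKD EpiLCs (SD, n = 3). Mean levels of *Gata4*, *Gata6* and *Sox17* lay between 1.13 and 2.97 TPM over the 4 groups. *Dab2* ranged from 0.185 TPM in Neg ESCs to 2.69 TPM in Neg EpiLCs, and *Cubn* from 0.00538 TPM in 3xKD ESCs, the lowest mean of any marker, to 0.29 TPM in Neg EpiLCs. TPM divides by the transcript lengths that the authors' quantifier chose, which moved between libraries for *Dab2*, *Pdgfra*, *Amn* and *Sox17* and, to a lesser extent, *Gata6* and *Gata4*, so groups are compared below in CPM. In these bulk libraries a smaller number of endoderm-like cells and less RNA of these genes in each cell cannot be told apart.

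**Figure D1:**
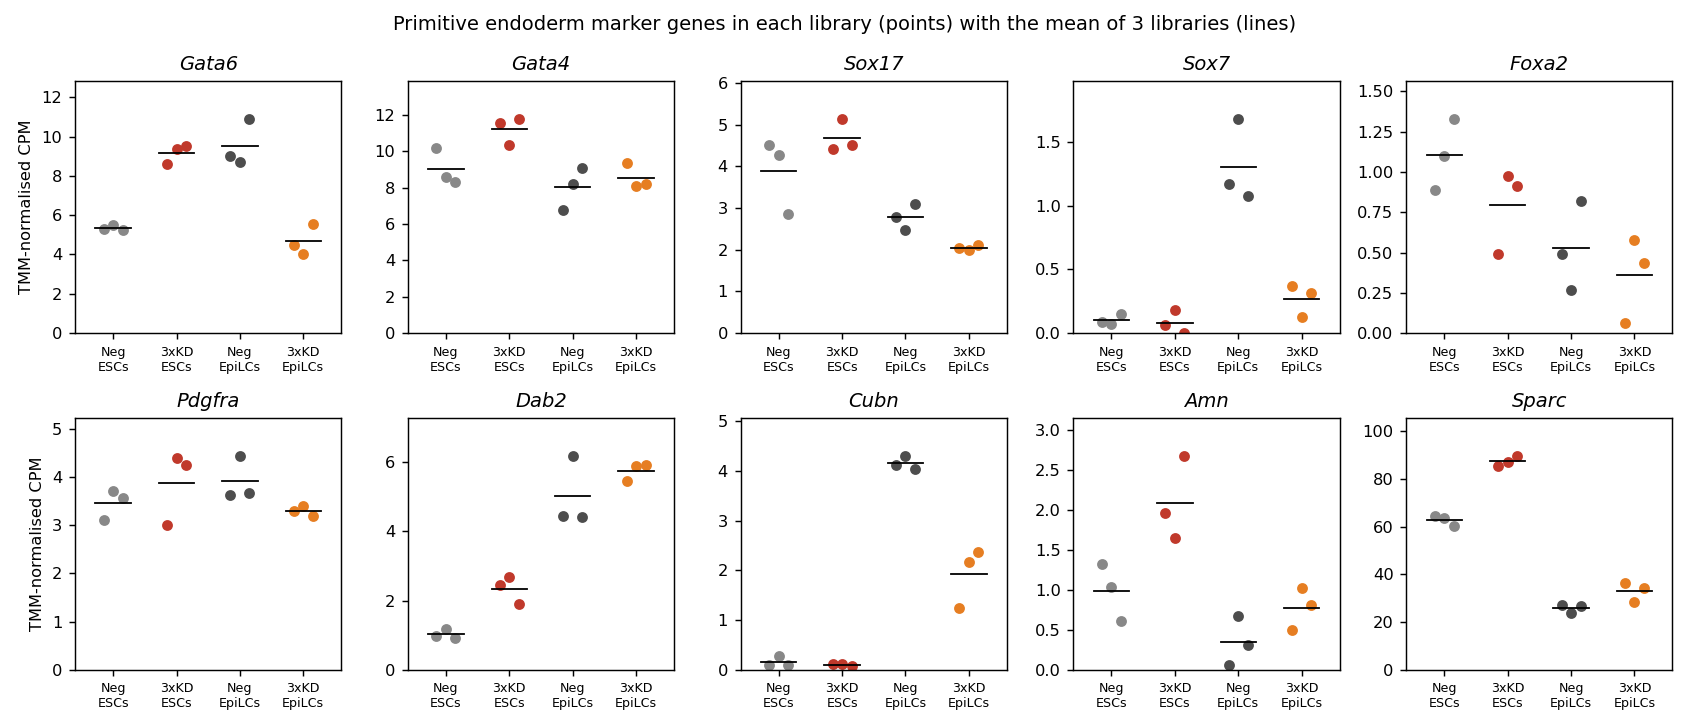
Level of each of the 10 primitive endoderm markers, in TMM-normalised CPM on a linear axis from 0, in each library (points) with the mean of 3 libraries (lines). *Gata6* is high in 3xKD ESCs and Neg EpiLCs (8.60 to 10.9 CPM) and low in the other 2 groups (4.03 to 5.56 CPM), while *Cubn* and *Sox7* have reads mainly in EpiLCs and *Sparc* is highest in 3xKD ESCs.

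The markers did not move as one group with the knockdown. In ESCs, *Gata6* and *Dab2* were higher in 3xKD than in Neg, and these were the only 2 of the 10 that passed edgeR's quasi-likelihood test at the limits used here, a Benjamini-Hochberg adjusted p under 0.01 with a log2 fold change of more than 0.58 in size. In that comparison 15.3% of the 25446 genes tested were called, so that 2 of 10 is near the share called in either direction, and 8.50% were called higher. In EpiLCs, 3 of the 10 were called, against 13.2% of all genes tested, and all 3 (*Gata6*, *Sox7* and *Cubn*) were lower in 3xKD, the direction in which 5.35% of all genes were called. The median log2 fold change of the 10 markers was 0.31 in ESCs and -0.34 in EpiLCs, where the median of all genes tested was 0.03 in each state.

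Groups that did not overlap were counted too. The 3 libraries of 3xKD did not overlap those of Neg for 5 markers in ESCs, all higher (*Gata6*, *Gata4*, *Dab2*, *Amn* and *Sparc*), where 49.0% of all genes tested did not overlap and 25.2% were higher without overlap. In EpiLCs the groups did not overlap for 6 markers, against 47.2% of all genes, with *Sparc* higher and *Gata6*, *Sox17*, *Sox7*, *Pdgfra* and *Cubn* lower. The share of all genes that was lower without overlap in EpiLCs was 23.1%, and 24.1% were higher. In total the counts were close to those of all genes, while by direction 5 of 10 were higher in ESCs and 5 of 10 lower in EpiLCs, above the shares of all genes in those directions. With transcript-length offsets in place of plain gene counts, neither ESC call remained. *Gata6* then had a log2 fold change of 0.60 (edgeR, adjusted p = 0.0581) and *Dab2* of 2.12 (edgeR, adjusted p = 0.0105), where over all 22 alternatives the adjusted p ran from 4.2e-07 to 0.0581 for *Gata6* and from 1.01e-05 to 0.0105 for *Dab2*.

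**Figure D2:**
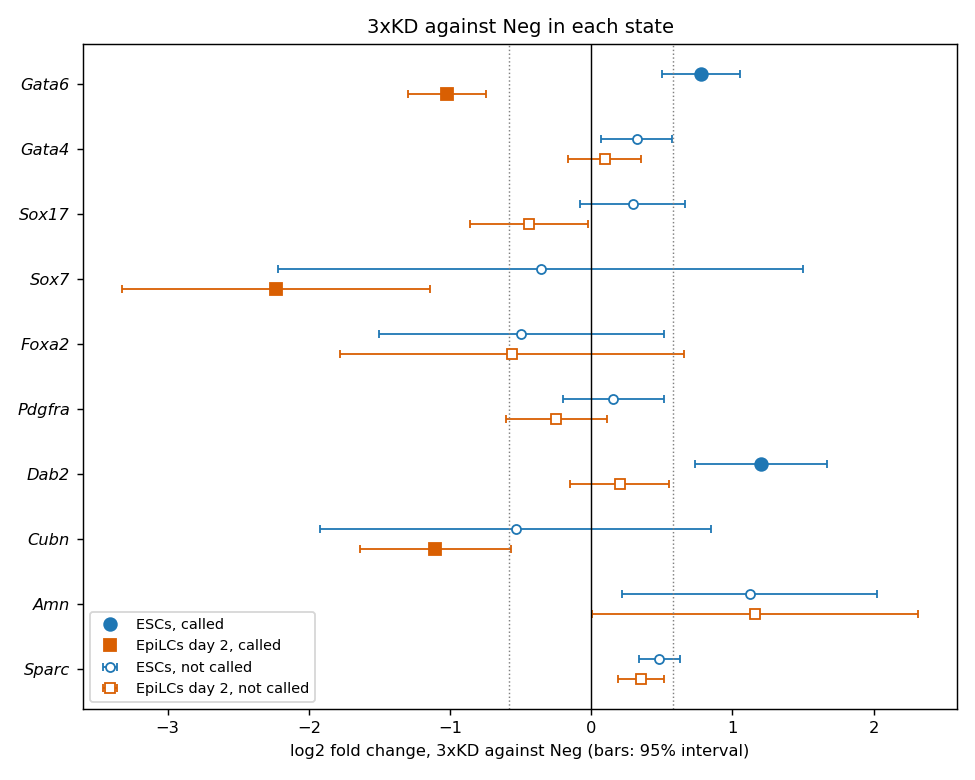
log2 fold change of each marker for 3xKD against Neg in ESCs (circles) and EpiLCs day 2 (squares), with 95% intervals as bars and dotted lines at the fold limit of 0.58 in either direction; filled symbols passed both limits. *Gata6* lies at 0.78 in ESCs and -1.02 in EpiLCs with intervals that do not meet, and *Sparc* lies above 0 in both states.

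*Gata6* encodes the zinc-finger factor that sets the primitive endoderm fate. It lies on chromosome 18 of GRCm39 (11051565–11086995, plus strand), and 95.5% of its counts fell on 1 transcript of 7 exons. Its level was 5.32, 5.51 and 5.25 CPM in Neg ESCs and 8.60, 9.39 and 9.54 CPM in 3xKD ESCs. In EpiLCs the order turned, with 8.99, 8.73 and 10.9 CPM in Neg and 4.47, 4.03 and 5.56 CPM in 3xKD. Neither pair of groups overlapped.

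The knockdown difference of *Gata6* was a log2 fold change of 0.78 (SE 0.13) in ESCs, with an edgeR adjusted p of 0.000115, and -1.02 (SE 0.13) in EpiLCs, with an edgeR adjusted p of 7.33e-06. The difference between these effects, tested as an interaction, was -1.80 on the log2 scale (SE 0.184, 95% interval -2.19 to -1.41, edgeR adjusted p = 3.75e-06). It was the only marker of the 10 past the limit of 0.01 in that test, which called 5.27% of all genes tested in the same direction. Over the 21 alternatives this difference stayed between -1.97 and -1.69 and below the limit in each. From ESCs to EpiLCs *Gata6* rose in Neg (log2 fold change 0.83, edgeR adjusted p = 4.55e-05) and fell in 3xKD (log2 fold change -0.97, edgeR adjusted p = 1.08e-05). *Gata6os*, a non-coding gene on the opposite strand that overlaps *Gata6* or lies within 1000 bases of it, had 27 counts over the 12 libraries and its effects were 1.37 in ESCs (edgeR adjusted p = 0.319) and -1.44 in EpiLCs (edgeR adjusted p = 0.166).

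*Gata4*, which acts beside *Gata6* in the same layer, lies on chromosome 14 (63436362–63509141, minus strand). It did not follow *Gata6*. It had 10.2, 8.60 and 8.31 CPM in Neg ESCs, 11.6, 10.4 and 11.8 CPM in 3xKD ESCs, 6.78, 8.19 and 9.10 CPM in Neg EpiLCs and 9.37, 8.12 and 8.18 CPM in 3xKD EpiLCs. The 3xKD ESC libraries lay above the Neg ESC libraries by a small margin, and the EpiLC groups overlapped. The log2 fold change for 3xKD against Neg was 0.32 in ESCs (95% interval 0.07 to 0.58, edgeR adjusted p = 0.0408) and 0.09 in EpiLCs (95% interval -0.17 to 0.35, edgeR adjusted p = 0.607). Its EpiLC interval leaves out a fall of the size seen for *Gata6*.

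*Sox17*, an endoderm factor on chromosome 1 (4561151–4567784, minus strand), had 4.52, 4.27 and 2.86 CPM in Neg ESCs and 4.42, 5.12 and 4.51 CPM in 3xKD ESCs. In EpiLCs it had 2.77, 2.48 and 3.10 CPM in Neg and 2.05, 1.98 and 2.12 CPM in 3xKD. The ESC groups overlapped and the EpiLC groups did not. Neither knockdown effect was called, with log2 fold changes of 0.29 in ESCs (edgeR adjusted p = 0.216) and -0.44 in EpiLCs (edgeR adjusted p = 0.0919), and their difference of -0.73 had an edgeR adjusted p of 0.0728. *Sox17* fell from ESCs to EpiLCs in 3xKD (log2 fold change -1.19, SE 0.187, edgeR adjusted p = 5.55e-05). That call was lost under transcript-length offsets (-0.87, edgeR adjusted p = 0.122) and held under the other 21 alternatives, of which the lowest adjusted p was 3.25e-07. The same step in Neg was -0.46 (edgeR adjusted p = 0.0578), and it was called at -0.65 without Neg ESCs replicate 3.

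*Sox7*, a SOX factor of the same subfamily as *Sox17*, lies on chromosome 14 (64181006–64188352, plus strand). It was at the floor of detection in ESCs, with 1, 1 and 3 counts in the Neg libraries and 1, 3 and 0 counts in the 3xKD libraries, and no fold is given there. A count of 0 allows up to 3 counts, or between 0.153 and 0.267 CPM at these depths, for counting error only. In EpiLCs it had 19, 25 and 17 counts (1.17, 1.68 and 1.07 CPM) in Neg and 6, 2 and 5 counts (0.37, 0.13 and 0.31 CPM) in 3xKD. The EpiLC groups were far apart on a low scale.

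The log2 fold change of *Sox7* in EpiLCs was -2.23 (SE 0.513, edgeR adjusted p = 0.00215). As a ratio of summed counts this was 13 against 61, or 0.209-fold with a 95% counting interval of 0.106 to 0.385. The call rests on few reads, since the adjusted p was 0.0133 without Neg EpiLCs replicate 2 (log2 fold change -2.01) and 0.0127 without 3xKD EpiLCs replicate 2 (log2 fold change -1.91), in edgeR, and ran from 0.000375 to 0.0133 over the alternatives. *Sox7* rose from ESCs to EpiLCs in Neg, from 5 to 61 counts (ratio 11.8, 95% counting interval 4.79 to 37.6, edgeR adjusted p = 0.000128). The step in 3xKD, from 4 to 13 counts, was not called (edgeR adjusted p = 0.0961).

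*Foxa2*, a forkhead factor shared by primitive and definitive endoderm, lies on chromosome 2 (147884797–147889005, minus strand). It had sums of 52 counts in Neg ESCs, 38 in 3xKD ESCs, 25 in Neg EpiLCs and 17 in 3xKD EpiLCs. Its library levels ranged from 0.0621 to 1.33 CPM, and it was called in none of the 5 tests by edgeR or by DESeq2. Its unadjusted p was under 0.05 only for EpiLCs against ESCs in Neg (0.0494). The 95% intervals of its knockdown effect on the log2 scale were wide at this depth, -1.51 to 0.52 in ESCs and -1.78 to 0.66 in EpiLCs.

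*Pdgfra*, the receptor for PDGF that marks the primitive endoderm surface, lies on chromosome 5 (75311994–75358876, plus strand). Its levels ranged little in CPM, at 3.10, 3.72 and 3.57 CPM in Neg ESCs, 3.01, 4.39 and 4.25 CPM in 3xKD ESCs, 3.63, 4.43 and 3.67 CPM in Neg EpiLCs and 3.29, 3.39 and 3.18 CPM in 3xKD EpiLCs. The knockdown effect was 0.16 in ESCs (95% interval -0.20 to 0.52) and -0.25 in EpiLCs (95% interval -0.61 to 0.11) on the log2 scale. Under transcript-length offsets the EpiLC effect was -1.48 (edgeR adjusted p = 0.0171, the lowest of 22 alternatives, highest 0.613), which was not called. The step from ESCs to EpiLCs in Neg was called for *Pdgfra* only under transcript-length offsets (1.57, edgeR adjusted p = 0.00933, 1 of 22 alternatives, highest 0.716). Its paralog *Pdgfrb*, which marks mesenchyme, rose with the knockdown in both states, by 1.75 in ESCs (edgeR adjusted p = 8.31e-09) and 1.57 in EpiLCs (edgeR adjusted p = 2.41e-07) on the log2 scale.

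The ligands, receptors, adaptor and feedback genes of PDGF and FGF4 signalling, taken as one list, moved in both directions. Of 12 such genes, 2 receptors were called higher and 3 feedback genes lower in 3xKD ESCs, where 6.76% of all genes were called lower. In 3xKD EpiLCs 4 were called higher, of which 2 remained in number under transcript-length offsets, and 3 lower. In ESCs *Fgfr2*, the FGF receptor that marks early primitive endoderm, rose (log2 fold change 1.55) while the ERK feedback genes *Spry4* (-1.81), *Spry2* (-1.74) and *Dusp6* (-0.94) fell. In EpiLCs *Pdgfb* (1.51) and *Pdgfa* (1.14) rose, and *Fgf4* (-1.15) fell.

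*Fgf4*, the epiblast signal for primitive endoderm, had 79.1–82.2 CPM in Neg ESCs, 114–119 CPM in 3xKD ESCs, 243–247 CPM in Neg EpiLCs and 109–112 CPM in 3xKD EpiLCs. Its knockdown effect was 0.54 in ESCs, below the fold limit, and the difference of its effects between states was -1.69 (edgeR adjusted p = 2.64e-12). *Fgf4* was thus higher in 3xKD ESCs and lower in 3xKD EpiLCs than in Neg. *Fgfr2* differed between states in the same direction as *Fgf4* (-1.86, edgeR adjusted p = 6.05e-07). It had 2.48–3.26, 7.84–8.41, 15–16.3 and 11.6–14 CPM in the groups in that order. The ERK feedback genes *Dusp6* (1.56), *Spry4* (1.03) and *Spry2* (0.94) differed between states in the other direction. In EpiLCs, *Spry2* (-0.80) and *Spry4* (-0.78) were still lower in 3xKD, by less than in ESCs, while *Dusp6* was higher (0.62). A link of these genes to *Gata6* was not tested.

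*Dab2* encodes a clathrin adaptor that sorts cubilin and other receptors into coated pits. It lies on chromosome 15 (6329269–6470196, plus strand). It had 0.98, 1.17 and 0.92 CPM in Neg ESCs, 2.46, 2.68 and 1.89 CPM in 3xKD ESCs, 4.43, 6.17 and 4.42 CPM in Neg EpiLCs and 5.46, 5.88 and 5.93 CPM in 3xKD EpiLCs. The ESC groups did not overlap, whereas Neg EpiLCs replicate 2 lay above the 3xKD EpiLC libraries. All EpiLC libraries lay above all ESC libraries.

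The log2 fold change of *Dab2* for 3xKD against Neg was 1.20 in ESCs (SE 0.221, edgeR adjusted p = 0.000289) and 0.20 in EpiLCs (95% interval -0.15 to 0.55, edgeR adjusted p = 0.386). The difference between the effects was -1.001 (SE 0.277), and with an edgeR adjusted p of 0.0198 it missed the limit. *Dab2* rose from ESCs to EpiLCs in Neg (log2 fold change 2.29, edgeR adjusted p = 7.6e-08) and in 3xKD (log2 fold change 1.29, edgeR adjusted p = 1.42e-05). Under transcript-length offsets the 3xKD step was 1.35 with an edgeR adjusted p of 0.0484, the highest of its 22 alternatives (lowest 6.58e-10).

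*Cubn*, which encodes the endocytic receptor cubilin, lies on chromosome 2 (13281149–13496624, minus strand), and 98.8% of its counts fell on 1 transcript of 67 exons. It was near absent in ESCs, with 1, 4 and 2 counts in Neg and 2, 2 and 1 counts in 3xKD. In EpiLCs it had 67, 64 and 64 counts (4.13, 4.30 and 4.05 CPM) in Neg and 20, 34 and 38 counts (1.24, 2.17 and 2.37 CPM) in 3xKD. The EpiLC groups did not overlap, and 3xKD EpiLCs replicate 1 was the lowest of the 6.

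*Cubn* was 0.464-fold in 3xKD EpiLCs by summed counts (92 against 195, 95% counting interval 0.358 to 0.597), with a log2 fold change of -1.11 (SE 0.253, edgeR adjusted p = 0.00205). The call was lost without Neg EpiLCs replicate 2 (-1.07, edgeR adjusted p = 0.0104) and without 3xKD EpiLCs replicate 1 (-0.87, edgeR adjusted p = 0.0119), and under transcript-length offsets (-1.15, edgeR adjusted p = 0.0128). Over all alternatives the adjusted p lay between 0.000427 and 0.0128. *Cubn* rose from ESCs to EpiLCs in both lines, with a ratio of summed counts of 26.9 in Neg (95% counting interval 12.8 to 67.9, edgeR adjusted p = 1.64e-08) and 18.5 in 3xKD (95% counting interval 7.64 to 58.3, edgeR adjusted p = 4.59e-07).

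*Amn* encodes amnionless, the membrane anchor that carries cubilin to the cell surface, and lies on chromosome 12 (111237524–111244001, plus strand). It had 1.33, 1.03 and 0.61 CPM in Neg ESCs, 1.97, 1.65 and 2.68 CPM in 3xKD ESCs, 0.0616, 0.67 and 0.32 CPM in Neg EpiLCs and 0.50, 1.02 and 0.81 CPM in 3xKD EpiLCs. The ESC groups did not overlap and the EpiLC groups did. The knockdown effects of 1.12 in ESCs (edgeR adjusted p = 0.0465) and 1.16 in EpiLCs (edgeR adjusted p = 0.11) were not called, and nor were its falls of -1.46 and -1.42 from ESCs to EpiLCs in Neg and 3xKD (edgeR adjusted p = 0.0359 and 0.0132). In EpiLCs the knockdown effect of *Amn* moved to 0.66 without Neg EpiLCs replicate 1 and to 2.01 without Neg EpiLCs replicate 2, and was 0.06 under transcript-length offsets, uncalled in each. The fall was called under 2 of 22 alternatives in Neg and 5 of 22 in 3xKD, leaving out Neg EpiLCs replicate 2 being among them in both.

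The upstream sequences of *Dab2* and *Cubn*, the endocytosis genes with called differences, are given here because both genes rose in EpiLCs and because GATA factors are known regulators in this layer. They are the 250 bases before a RefSeq start site (RefSeq promoter table on GRCm38.p6, placed on GRCm39 by exact match), with capitals for any match on either strand to a short word. The GATA words searched were AGATAA along with its variant ending in G, which is AGATAG, together with the versions of both that begin with T, that is TGATAA followed by the second such version, TGATAG. The SOX words searched were AACAAT as well as the version ending in A, which is AACAAA. The *Dab2* window is chr15:6329020-6329269, at its upstream start, whose transcripts took 0.7% of the counts of *Dab2*. The *Cubn* window is chr2:13496688-13496937 on the minus strand, at the start that took 98.8% of its counts.
Dab2: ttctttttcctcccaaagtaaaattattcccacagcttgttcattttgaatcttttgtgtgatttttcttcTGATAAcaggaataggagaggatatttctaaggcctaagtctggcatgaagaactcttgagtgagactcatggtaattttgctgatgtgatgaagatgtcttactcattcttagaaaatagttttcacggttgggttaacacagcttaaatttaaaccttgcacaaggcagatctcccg
Cubn: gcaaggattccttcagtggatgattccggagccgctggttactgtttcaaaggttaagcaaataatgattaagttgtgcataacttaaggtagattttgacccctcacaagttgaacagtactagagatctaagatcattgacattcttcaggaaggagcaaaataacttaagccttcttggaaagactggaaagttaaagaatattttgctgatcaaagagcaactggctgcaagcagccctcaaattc

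The *Dab2* window held 1 GATA word and the *Cubn* window none of either kind. GATA words occurred in 26.5% and SOX words in 24.9% of the 32851 windows of this length in the table. The second *Dab2* start, next to the start sites of the transcripts that took 80.2% of its counts, had no such word in its window, and nor did the windows of *Sparc*, *Pdgfra* and *Amn*. Of the 3 *Foxa2* windows 1 had a GATA word and 1 a SOX word. A match of this kind describes letters only.

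Partner receptors of the same uptake route were also read. *Lrp1*, a scavenger receptor, rose in 3xKD ESCs (log2 fold change 0.84). *Lrp2*, which encodes the cubilin partner megalin, had 12.2–12.7 CPM in Neg ESCs, 15.5–16.3 CPM in 3xKD ESCs, 109–120 CPM in Neg EpiLCs and 98.7–104 CPM in 3xKD EpiLCs. It rose from ESCs to EpiLCs as *Cubn* and *Dab2* did (log2 fold change 3.20 in Neg and 2.68 in 3xKD), and its knockdown effects of 0.36 in ESCs and -0.17 in EpiLCs were below the fold limit.

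*Sparc* encodes a collagen-binding matrix protein and lies on chromosome 11 (55285317–55314067, minus strand). It had 64.4, 63.5 and 60.2 CPM in Neg ESCs, 85.5, 87.2 and 89.5 CPM in 3xKD ESCs, 27.0, 23.9 and 26.6 CPM in Neg EpiLCs and 36.4, 28.3 and 34.4 CPM in 3xKD EpiLCs. No pair of neighbouring groups overlapped, and 3xKD lay above Neg in both states. The log2 fold change was 0.48 in ESCs (SE 0.0687, edgeR adjusted p = 2.3e-05) and 0.35 in EpiLCs (SE 0.0772, edgeR adjusted p = 0.00142). Both passed the limit on adjusted p and neither reached the fold limit, so neither was called.

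*Sparc* was the one marker whose knockdown effect was above 0 with an adjusted p under 0.01 in both states, and the difference between its effects was -0.13 (95% interval -0.35 to 0.09). It fell from ESCs to EpiLCs by 1.27 in Neg (edgeR adjusted p = 3.25e-10) and by 1.40 in 3xKD (edgeR adjusted p = 7.36e-11) on the log2 scale.

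Genes of the basement membrane other than *Lama1* had log2 fold changes above 0 in both states. This list was chosen with earlier results of these data known, so setting it against all genes is no independent test. Of 12 such genes, 6 were called higher in 3xKD ESCs, where 8.50% of all genes were called higher, and the median log2 fold change was 0.55. *Npnt*, which encodes the integrin ligand nephronectin, rose by 1.43, the collagen IV chains *Col4a2* and *Col4a1* by 1.27 and 1.24, and *Nid1*, which encodes nidogen, by 1.01. In EpiLCs 6 were called higher, where 7.88% of all genes were, and 1 lower, and the median was 0.58. *Npnt* (1.43), *Nid1* (1.30) and *Fn1*, which encodes fibronectin (0.94), rose most, and the laminin chain *Lama1* fell (-0.92). *Lama1* was also lower in ESCs, at -0.58 just short of the fold limit (edgeR adjusted p = 6.56e-06), and DESeq2 called 1 gene of the list lower there. Under transcript-length offsets 5 were called higher in each state.

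Set side by side in each library, the sums differed between markers and matrix. The 12 basement membrane genes summed to 1586–1678 CPM in Neg ESCs and 2090–2163 CPM in 3xKD ESCs, and to 765–808 CPM in Neg EpiLCs and 1148–1215 CPM in 3xKD EpiLCs, higher in 3xKD in both states. The 9 markers without *Sparc* summed to 23.1–26.5 CPM in Neg ESCs and 32.7–35.6 CPM in 3xKD ESCs. In EpiLCs these 9 summed to 32.5–37.4 CPM in Neg and 26.8–28.9 CPM in 3xKD. The matrix sum and the sum of these 9 thus lay on the same side in ESCs and on opposite sides in EpiLCs. With *Sparc* included, the 10 markers summed to 59.5–64.0 CPM in Neg EpiLCs and 55.6–63.3 CPM in 3xKD EpiLCs, which overlapped. The sum of 10 further primitive endoderm genes was higher in 3xKD in both states, at 272.6–290 against 425.6–432.6 CPM in ESCs and 281.4–293.6 against 449.5–472.7 CPM in EpiLCs. A part of endoderm-like cells in the matrix result was not tested.

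**Figure D3:**
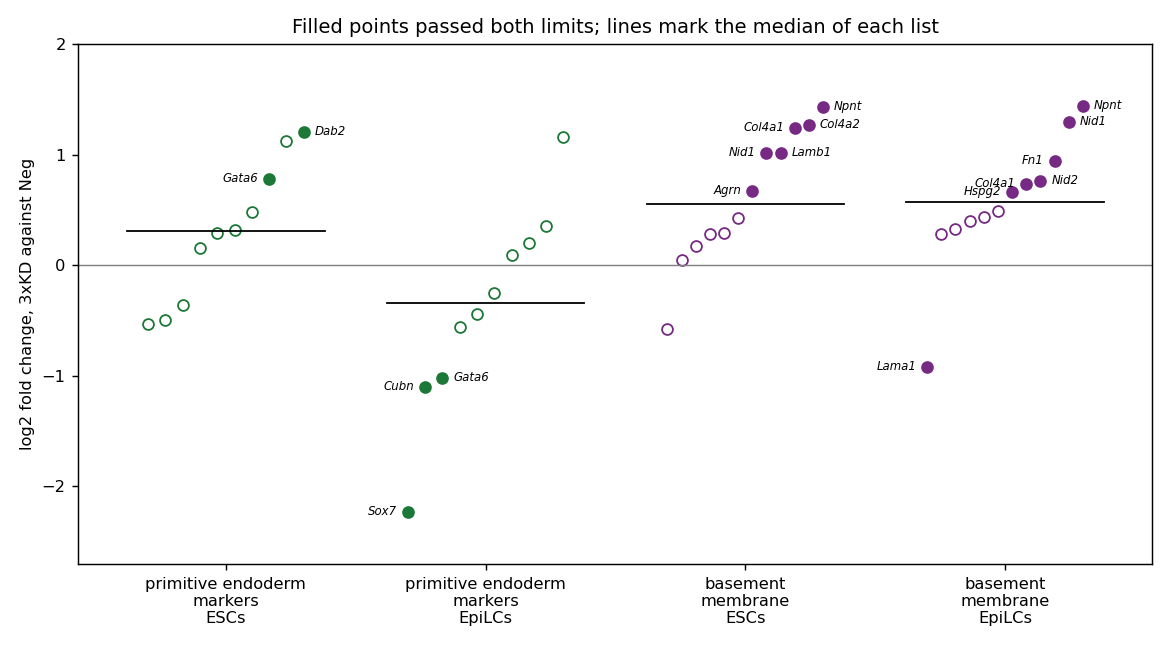
log2 fold change for 3xKD against Neg of the 10 primitive endoderm markers and of 12 basement membrane genes in each state, with filled points for genes past both limits and lines at the median. The marker medians lie at 0.31 in ESCs and -0.34 in EpiLCs and the matrix medians at 0.55 and 0.58.

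Other genes of the layer that are not among the 10 were read as well. Among 10 further primitive endoderm genes, the genes that edgeR called higher in 3xKD numbered 3 in ESCs and 4 in EpiLCs. Of all genes tested, 8.50% and 7.88% were called higher in these states. The higher calls numbered 2 in ESCs under DESeq2, and 1 in ESCs and 2 in EpiLCs under transcript-length offsets. *Serpinh1*, the collagen chaperone, rose in both states (log2 fold change 1.20 and 1.27), as did *Apoe*, a lipid carrier (0.71 and 1.55), and *F3*, the tissue factor gene (0.58 and 0.75). *Aqp8*, a water channel, fell in ESCs (-2.86), from 10.2–10.7 CPM to 1.11–1.83 CPM.

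Some of the 14 visceral endoderm genes were at or near 0, while the list as a whole had reads in every library. *Apoa4* had no reads in the 12 libraries, *Ttr* had at most 0.102 CPM and *Afp* at most 0.403 CPM. These 14 genes summed to 12.6–13.7 CPM in Neg ESCs, 19.0–21.8 CPM in 3xKD ESCs, 12.7–15.7 CPM in Neg EpiLCs and 16.5–20.5 CPM in 3xKD EpiLCs. Of the 11 that could be tested, 1 was called higher in ESCs (*Cited1*, 1.205) and 1 in EpiLCs (*Trf*, which encodes transferrin, 1.17). Of all genes tested, 8.50% were called higher in ESCs and 7.88% in EpiLCs, so 1 of 11 is near that share. The *Trf* call was lost under transcript-length offsets. The log2 fold change for 3xKD against Neg was above 0 for 10 of the 11 in ESCs and 7 in EpiLCs. Its median was 0.535 in ESCs and 0.384 in EpiLCs, where the median of all genes tested was 0.03 in each state. Some of these values rest on few reads, as for *Afp* in ESCs (0.87, SE 1.04).

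Of the 5 parietal endoderm genes, *Krt19* rose (1.52 in ESCs and 0.67 in EpiLCs) and *Fst*, which encodes follistatin, fell (-1.34 and -2.08). Their sum went from 26.4–31.7 CPM to 58.5–60.6 CPM in ESCs, of which *Krt19* alone had 51.4–51.8 CPM in 3xKD. *Thbd*, a defining gene of parietal endoderm, had at most 0.448 CPM in any library. The *Krt19* call in EpiLCs was lost without Neg EpiLCs replicate 1 and under transcript-length offsets. Over all genes tested, 15.3% were called in either direction in ESCs and 13.2% in EpiLCs.

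**Figure D4:**
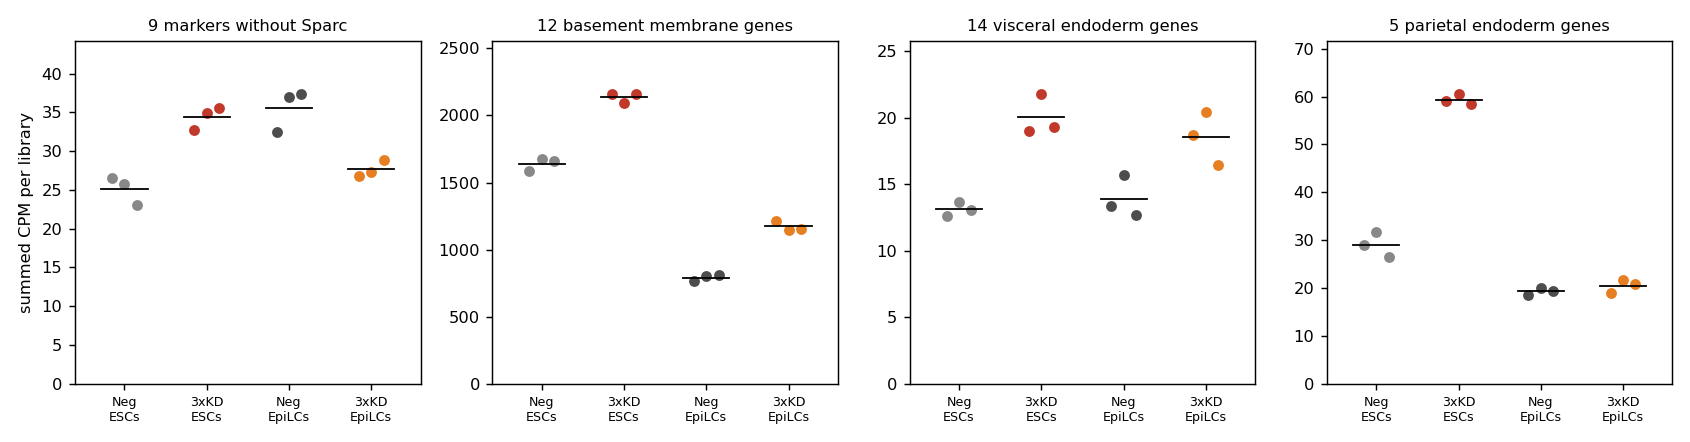
Summed CPM in each library (points) with the group mean (lines) for the 9 markers without *Sparc*, 12 basement membrane genes, 14 visceral endoderm genes and 5 parietal endoderm genes, each on its own linear axis from 0. The matrix sum is higher in 3xKD in both states, and the sum of the 9 markers is higher in 3xKD ESCs and lower in 3xKD EpiLCs.

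Markers of other lineages were read in the same libraries. In either direction edgeR called 15.3% of all genes tested in ESCs and 13.2% in EpiLCs. Of 8 definitive endoderm and mesendoderm genes tested, edgeR and DESeq2 each called 0 in ESCs (1 had an unadjusted edgeR p under 0.05) and 1 in EpiLCs, where *Lefty1* fell (-0.74). Of 7 mesoderm genes, *Twist1* rose in ESCs (1.098), and in EpiLCs neither tool called any (2 had an unadjusted edgeR p under 0.05). Of 6 trophoblast genes, *Krt7*, an epithelial keratin, rose (2.17 and 1.44), *Tfap2a* fell (-2.13 and -0.69) and *Cdx2* fell in ESCs (-2.50). Under transcript-length offsets no trophoblast gene was called in EpiLCs, *Krt7* included. DESeq2 called 0 trophoblast genes lower in EpiLCs, where edgeR called 2 (2 at an unadjusted p under 0.05), and edgeR called 0 of them without Neg EpiLCs replicate 3 or 3xKD EpiLCs replicate 1. Of 5 fibroblast genes, *Thy1* rose (0.85 and 0.77), while *Lum* and *Postn* had at most 0.185 CPM. The *Thy1* call in ESCs was lost under transcript-length offsets, and that in EpiLCs without Neg EpiLCs replicate 1 or 3 or without 3xKD EpiLCs replicate 1. Their part in the results was not tested.

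Paralogs of the markers were read because families can share reads. Calls covered 15.3% of all genes tested in ESCs and 13.2% in EpiLCs. *Foxa1* rose in ESCs (log2 fold change 1.16), *Dab1* fell in ESCs (-0.62) and *Gata3* fell in EpiLCs (-1.62), while 6 of the 9 paralogs tested were called in neither state. *Gata3* in EpiLCs was at 0.537–0.677 CPM in Neg and 0.124–0.256 CPM in 3xKD, and missed the limits under DESeq2 and without Neg EpiLCs replicate 1 or 3 or 3xKD EpiLCs replicate 1 or 3. Under transcript-length offsets none of these paralogs was called in either state. The *Dab1* call was lost without Neg ESCs replicate 2 or 3xKD ESCs replicate 1. Of the annotated genes that overlap a marker or lie within 1000 bases of it, *Gata6os* and *Gm13270*, beside *Cubn*, had enough reads to be tested. *Gm13270* had an effect of 0.72 in EpiLCs (edgeR adjusted p = 0.409). The median log2 fold change of all genes on the 8 chromosomes that hold markers lay between -0.03 and 0.06 in ESCs and between -0.02 and 0.05 in EpiLCs.

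The passage from ESCs to EpiLCs separated the markers in both lines. In Neg, 5 of 10 were called, against 20.8% of all genes tested, with *Gata6*, *Sox7*, *Dab2* and *Cubn* higher (9.78% of all genes) and *Sparc* lower in EpiLCs. In 3xKD, 5 of 10 were called, against 18.7%, with *Dab2* and *Cubn* higher (9.42% of all genes) and *Gata6*, *Sox17* and *Sparc* lower (9.32%). The 3xKD count was 3 under transcript-length offsets (*Gata6*, *Cubn* and *Sparc*). The median of the 10 was 0.00 in Neg and -0.68 in 3xKD, with 0.01 for all genes tested in each line.

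The genes whose pattern over the 12 libraries was most like that of each called marker were sought by the root mean square difference of centred log2 CPM, over 15032 genes whose mean reached 1 CPM. For *Gata6* these were *Ttbk1* (0.23) and *Dach1* (0.26), for *Sox17* *Smox* (0.16) and *Sp2* (0.17), and for *Dab2* *Mdk* (0.20) and *Dbn1* (0.20). For *Cubn* they were *Vrtn* (0.29) and *Dnmt3b* (0.31), and for *Sparc* *Gyg* (0.11) and *Rnpep* (0.11). No marker was among the nearest of another.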

How the data were processed

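RNA-seq tables of 12 libraries were used. The authors depleted ribosomal RNA and made directional libraries (the molecule field of the labels gives polyA RNA), and their processing notes name bcl2fastq, Trim Galore 0.6.7, STAR 2.7.9a, Salmon 1.10.1 and the build GRCm39. The deposited tables give estimated counts per transcript, not normalised, and TPM as Salmon wrote them for the authors, corrected for length and depth. Where a gene has several transcripts, its TPM moved with the share of reads given to each.

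Each gene's estimated counts were added over its transcripts and rounded to whole numbers. Genes with at least 10 counts over all libraries were tested with edgeR 4.0.16 (R 4.3.3, TMM factors, quasi-likelihood test, 4 groups in one fit, Benjamini-Hochberg over 25446 genes). A call needed an adjusted p under 0.01 with a log2 fold change over 0.58 in size; no fold limit was set on the difference of effects. The standard error is the log2 fold change divided by the square root of F, and 95% intervals use the same fit. Counting intervals are exact binomial and, like the limit of 3 counts, cover counting error only. Alternatives were DESeq2 1.42.0, RLE, upper-quartile or no factors, the filterByExpr filter or none, offsets for transcript length, a replicate block, robust estimation, 2 groups alone, an adjusted p under 0.05 with no fold limit, and each library left out.

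The 10 markers and all gene lists were chosen with earlier results of these data known. Named genes are the 10 markers, up to 3 called genes with the largest change per list and comparison, markers of other cell types given for their level, and the 2 genes nearest in pattern to each called marker whose mean reached 1 CPM. Outside that rule, *Fgfr2*, *Dusp6*, *Pdgfa*, *Lama1*, *F3*, *Lrp2*, *Esrrb*, *Klf4*, *Tfcp2l1*, *Gata6os* and *Gm13270* were named after their values were seen. Positions are from GENCODE vM39 on GRCm39. RefSeq promoters were used for 6 markers, and *Gata6*, *Gata4*, *Sox17* and *Sox7* are named only. Marker windows on chromosome 18, where *Gata6* lies, were left out. Some genes of the lists are not reported here.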

Additional observations from a re-analysis of the deposited data

Results flagged for a closer look

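The knockdown effect of *Gata6* differed between ESCs and EpiLCs by -1.80 on the log2 scale (SE 0.184, edgeR adjusted p = 3.75e-06). It was singled out because a test of the difference itself passed the limit, with all 3 libraries of 3xKD above those of Neg in ESCs and all 3 below them in EpiLCs.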

How the results depend on the processing

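The count of markers called stayed within 1.5 times the reported count in every comparison under DESeq2, all 3 other scalings, both filters, robust estimation and fits of 2 groups. Under transcript-length offsets the count was 0 in ESCs and 3 from ESCs to EpiLCs in 3xKD, and the values of 3 effects that were not called changed sign, *Sox17* in EpiLCs (0.06), *Dab2* in EpiLCs (-0.13) and the difference for *Amn* (-0.93). With an adjusted p under 0.05 and no fold limit the count was 5 in ESCs and 2 for the difference between states. Leaving out each library gave 2 to 2 in ESCs, 1 to 3 in EpiLCs (1 without Neg EpiLCs replicate 2), 5 to 6 for each step from ESCs to EpiLCs, and changed the sign only of effects that were not called. Over these refits the ranges were -1.56 to 0.16 for *Sox7* and -0.838 to 0.094 for *Cubn* in ESCs, -0.012 to 0.196 for *Gata4* in EpiLCs, and -0.571 to 0.429 for *Foxa2* and -0.496 to 0.862 for *Amn* in the difference between states. Same-numbered libraries did not deviate together (18 pairs, r between -0.135 and 0.1), so the numbers do not pair them, and with the replicate block the counts were 2 in ESCs, 3 in EpiLCs, 5 and 5 for the steps and 1 for the difference, with the same markers called. The causes were not tested. Depth limits *Sox7*, *Cubn*, *Foxa2* and *Amn*.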
